A study of Mus musculus with 22 samples.

Results

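The E protein genes Tcf3 (E2a), Tcf12 (HEB) and Tcf4 (E2-2) and the genes of their inhibitors Id1, Id2 and Id3 were followed through 22 RNA-seq libraries of mouse CD45.1+ CD4+CD8+ (double-positive) thymocytes. These 6 genes were chosen by name, out of 43430 genes in each table. The libraries formed 7 groups. VavCre E2aF/F mice, in which Cre recombinase under Vav control acts across blood cell lineages, gave 3 libraries at 4 weeks of age, set against 3 from E2aF/F mice of that age with no Cre named. LckCre E2aF/F mice, in which Cre acts in developing T cells, gave 3 libraries at 4 weeks, with 3 E2aF/F controls of their own. At 8 weeks there were 4 libraries of VavCre E2aF/F mice that had been sublethally irradiated and given wild-type bone marrow 4 weeks earlier, 3 of untreated VavCre E2aF/F mice, and 3 of E2aF/F controls. All of these mice, controls included, carried the floxed E2a allele. The labels do not name the animals behind the replicates, nor which cells of the transplanted mice carried CD45.1, so every p-value below rests on the variation among libraries, which may be technical.

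E proteins are helix-loop-helix transcription factors that bind E-box DNA, CANNTG, as homodimers or as heterodimers with each other. Id proteins have the dimerization domain without a DNA-binding region, so an E protein paired with an Id protein cannot bind. In the thymus E proteins hold cells at the checkpoints before receptor selection, and signals through the pre-T cell and T cell receptors raise Id3.

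The promoter sequences below show which E-boxes lie at the start sites of the deleted gene and of the inhibitor genes whose transcripts moved. They run 5′ to 3′ on the gene's strand, from 250 bases before to 50 after the RefSeq start (GRCm38.p6), with every CANNTG in capitals. RefSeq entries were found for 4 of the 5 genes looked up.
Id3, chr4:136143572-136143871, plus strand: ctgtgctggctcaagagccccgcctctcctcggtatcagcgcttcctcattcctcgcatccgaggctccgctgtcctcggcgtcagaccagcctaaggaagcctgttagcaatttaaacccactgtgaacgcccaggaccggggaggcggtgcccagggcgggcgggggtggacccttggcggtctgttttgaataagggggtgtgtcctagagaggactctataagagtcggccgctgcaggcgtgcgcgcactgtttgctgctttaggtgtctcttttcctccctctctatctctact
Id2, chr12:25096043-25096342, minus strand: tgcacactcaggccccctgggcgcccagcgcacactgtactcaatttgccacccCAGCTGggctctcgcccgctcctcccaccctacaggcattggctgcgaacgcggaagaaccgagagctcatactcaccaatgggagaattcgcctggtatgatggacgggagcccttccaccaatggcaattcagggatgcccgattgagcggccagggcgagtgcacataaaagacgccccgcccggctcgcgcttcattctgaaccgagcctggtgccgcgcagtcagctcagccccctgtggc
Tcf3, chr10:80433586-80433885, minus strand: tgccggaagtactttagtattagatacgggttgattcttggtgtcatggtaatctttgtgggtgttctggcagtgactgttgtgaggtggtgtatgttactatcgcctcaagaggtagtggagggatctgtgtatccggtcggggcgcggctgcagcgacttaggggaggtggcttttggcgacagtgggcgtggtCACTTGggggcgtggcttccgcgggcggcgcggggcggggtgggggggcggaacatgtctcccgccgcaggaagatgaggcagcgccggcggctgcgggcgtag
The Id3 window held 0 matches to CANNTG on either strand. The Id2 window held 1, CAGCTG, whose first base lay at -196 from the start, and the Tcf3 window held 1, CACTTG, at -54. Tcf12 had 3 RefSeq start sites with 1, 2 and 1 matches, of which 1 was CAGCTG. Among 32851 promoter windows of the same 300 bases, 72.3% held CANNTG and 16.3% held CAGCTG, which is a form of CANNTG.

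Values were deposited as FPKM (fragments per kilobase of gene length, scaled to the library's reads) in 3 tables. Read totals recovered from the values lay between 5485146 and 37468192 per library. The double-positive label was checked on 8 marker genes, Cd4, Cd8a, Rag1 and Ptcra among them, of which 0 were at 0 throughout any group. Their summed FPKM was 2960 to 3536 in the Vav knockouts at 4 weeks against 4154 to 4304 in controls, and 3832 to 4061 in the Lck knockouts against 4119 to 4378 in controls. The 8-week sums were 1127 to 3158 in the transplanted mice and 1886 to 2212 in the Vav knockouts, against 4157 to 4523 in controls. Each library was correlated with the mean of the other libraries of its group. All 4 transplanted libraries were lowest, with r of 0.867 in replicate 3 and 0.923 to 0.949 in the others. The 18 libraries of the other groups had r of 0.964 to 0.995.

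Tcf3, the deleted gene (ENSMUSG00000020167, mm10 chromosome 10, 80409514 to 80433647), was low in every library with Cre. At 4 weeks it had 1.36, 1.39 and 1.15 FPKM in Vav knockouts, against 7.47, 6.39 and 6.73 FPKM in controls. It had 1.33, 1.20 and 1.20 FPKM in Lck knockouts, against 7.5, 8.22 and 6.98 FPKM in controls. At 8 weeks it had 1.22, 1.31, 2.32 and 1.21 FPKM in transplanted mice and 2.13, 1.23 and 2.01 FPKM in Vav knockouts, against 7.59, 7.52 and 7.49 FPKM in controls. No knockout or transplanted library overlapped a control of its table. In bulk RNA of a sorted gate, fewer cells of a type and less RNA per cell cannot be told apart.

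In reads scaled to library totals (RPM), Tcf3 was at 18.9% of its control in Vav knockouts at 4 weeks and at 16.4% in Lck knockouts. The 8-week figures were 20.1% in transplanted mice and 23.8% in Vav knockouts, of the same controls. The log2 change of FPKM + 1, a scale that understates changes of low genes, was -1.77 (SE 0.0798) for Vav at 4 weeks and -1.93 (SE 0.0724) for Lck. It was -1.79 (SE 0.181) for transplanted mice and -1.63 (SE 0.193) for Vav knockouts at 8 weeks. The adjusted p from limma with Benjamini-Hochberg adjustment was 0.000363, 0.000608, 0.000548 and 0.00165 in that order. By smallest p, Tcf3 ranked 6 of 10828 genes for Vav at 4 weeks and 2 of 10946 for Lck, but 65 and 82 of 11632 for transplanted mice and Vav knockouts at 8 weeks. The Vav and Lck falls differed by 0.16 (95% interval -0.08 to 0.39, adjusted p = 0.513), and the transplanted and untransplanted mice by -0.16 (-0.56 to 0.25, adjusted p = 0.886). The deletion removes part of the gene, and which exons the remaining reads cover is not shown by gene totals.

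The 3 highest knockout values were all at 8 weeks: transplanted replicate 3, and Vav knockout replicates 1 and 3. These rested on 1487, 1288 and 1191 reads, where the other 4 libraries with Cre at that age had 525 to 807. Without transplanted replicate 3, the library least like its group over all genes, the change in transplanted mice was -1.93 (SE 0.136, adjusted p = 0.000189 in limma).

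**Figure D1:**
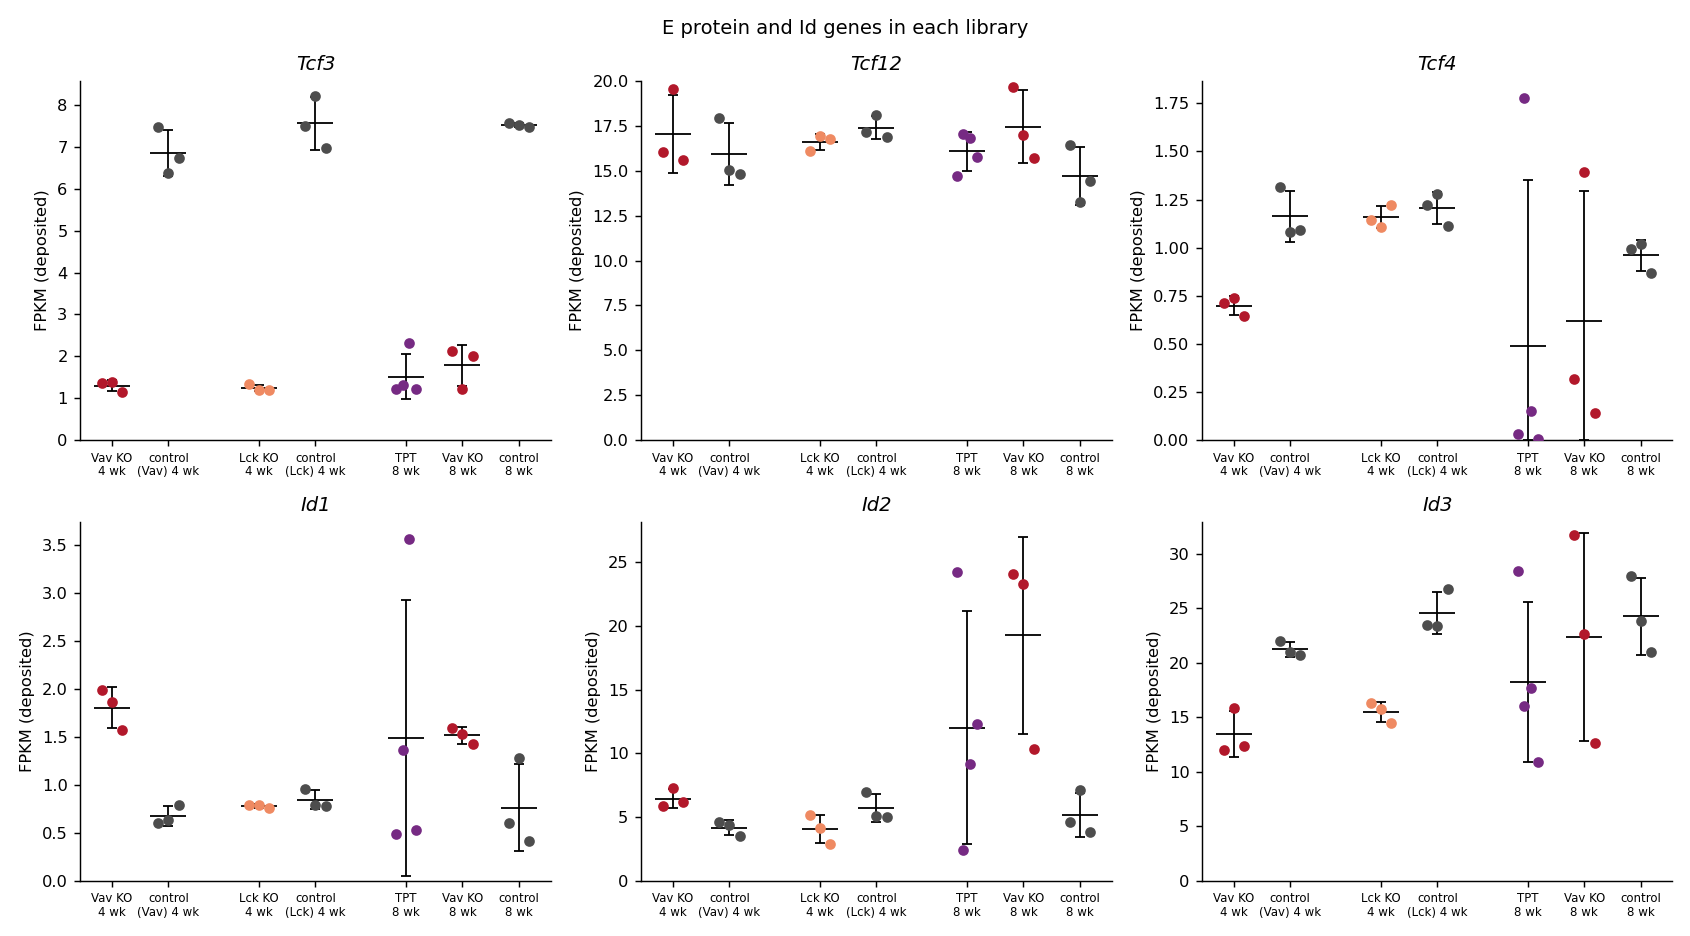
Deposited FPKM of the 6 genes in each of the 22 libraries, by group, with group mean and SD bars cut at 0; each vertical axis starts at 0. Tcf3 lies below its controls in all 13 libraries with Cre, and Tcf12 overlaps its controls throughout. Tcf4, Id2 and Id3 spread widely in the 8-week mice with Cre, and Id1 in the transplanted mice among them.

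Tcf12, the other E protein abundant in thymocytes (ENSMUSG00000032228, chromosome 9, 71842688 to 72111871), was not called in any of the comparisons. It had 16.1, 19.6 and 15.6 FPKM in Vav knockouts at 4 weeks, against 17.9, 15.1 and 14.8 FPKM in controls. It had 16.1, 16.9 and 16.8 FPKM in Lck knockouts, against 17.2, 18.1 and 16.9 FPKM in controls. At 8 weeks it had 14.7, 17.1, 16.9 and 15.8 FPKM in transplanted mice and 19.7, 17 and 15.7 FPKM in Vav knockouts, against 16.5, 13.3 and 14.4 FPKM in controls. Each group overlapped its controls.

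The change of Tcf12 was 0.09 (95% interval -0.17 to 0.35) for Vav and -0.06 (-0.17 to 0.05) for Lck at 4 weeks. The 8-week changes were 0.12 (-0.14 to 0.39) for transplanted mice and 0.23 (-0.05 to 0.51) for Vav knockouts. Their limma adjusted p-values were 0.63, 0.616, 0.534 and 0.242. The largest rise inside these intervals is 0.51 and the largest fall -0.17. With array weights, the 8-week Vav change was 0.28 (adjusted p = 0.0391 in limma).

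Tcf4 (ENSMUSG00000053477, chromosome 18, 69343356 to 69689079), the E protein best known from plasmacytoid dendritic cells, was the scarcest of the 3 and the most uneven. At 4 weeks it had 0.710, 0.740 and 0.644 FPKM in Vav knockouts, all below the 1.32, 1.08 and 1.09 FPKM of controls. In Lck knockouts it had 1.14, 1.11 and 1.22 FPKM, among the 1.22, 1.28 and 1.11 FPKM of controls. The Vav fall was -0.35 (SE 0.0868, adjusted p = 0.0451 in limma), and the Lck change was -0.03 (95% interval -0.23 to 0.17, adjusted p = 0.92). Tcf4 passed the filter of 1 FPKM in 3 libraries only through the 3 Vav controls, and leaving out any 1 of them removed it from the test. The Vav call was lost with a pseudocount of 0.1 (adjusted p = 0.0514), without a filter (0.0712) and without knockout replicate 1, 2 or 3 (adjusted p = 0.0786, 0.0505 and 0.115).

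On reads recovered from the FPKM, an alternative added after the data were seen, the Vav fall of Tcf4 was -0.73 (SE 0.104, adjusted p = 0.00268 in limma voom). Its difference from the Lck effect was then -0.69 (adjusted p = 0.0115), against -0.32 (95% interval -0.54 to -0.09, adjusted p = 0.124) on the FPKM scale. The added model has no pseudocount of 1 FPKM, which is close to Tcf4's own level.

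At 8 weeks Tcf4 had 0.0284, 1.78, 0.152 and 0.00319 FPKM in transplanted mice and 0.315, 1.39 and 0.141 FPKM in Vav knockouts, against 0.991, 1.02 and 0.869 FPKM in controls. The transplanted values rested on 15, 1351, 120 and 2 reads, and those of the Vav knockouts on 234, 777 and 103. Replicate 2 of each of these groups lay above every control and the other 5 libraries below every control, so both groups overlapped the controls. Tests on the means did not pass (changes of -0.54, SE 0.387, and -0.36, SE 0.414, adjusted p = 0.406 and 0.59 in limma). On recovered reads the changes were -3.46 (SE 1.36, adjusted p = 0.148 in limma voom) and -1.39 (SE 1.01, adjusted p = 0.386).

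**Figure D2:**
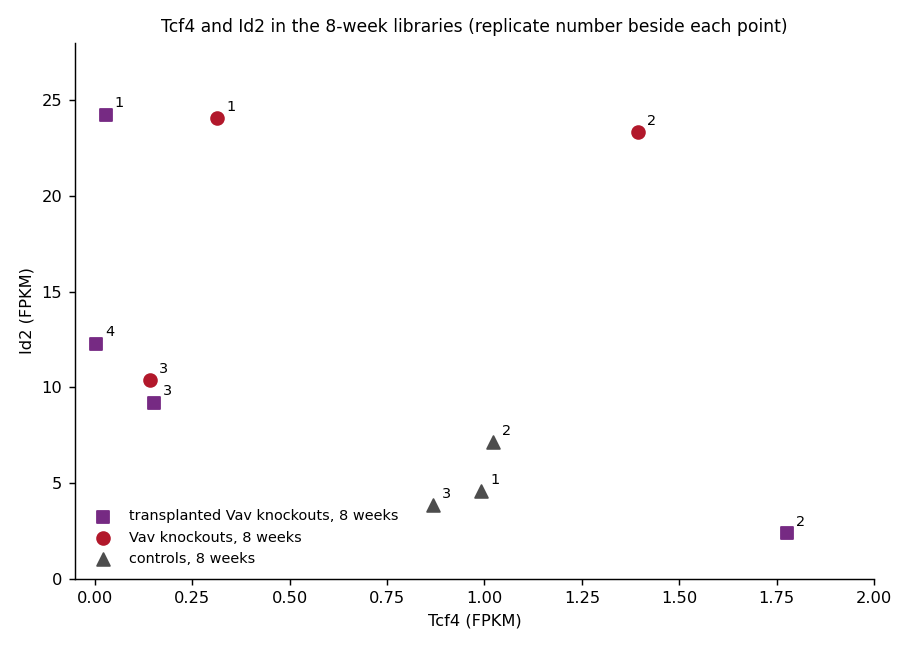
Tcf4 against Id2 in the 10 libraries at 8 weeks, in FPKM, with the replicate number beside each point. Replicate 2 of the transplanted mice is highest for Tcf4 (1.78 FPKM) and lowest for Id2 (2.37 FPKM), while replicate 2 of the Vav knockouts is high for both (1.39 and 23.3 FPKM).

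Genes were ranked by the correlation of their log2 values, each taken relative to the control mean of its table, with those of Tcf4 over the 22 libraries. The nearest of 10449 genes were Laptm4b (r = 0.950), a lysosomal membrane protein gene, Myo10 (r = 0.945), an unconventional myosin gene, and Wls (r = 0.929), which encodes a carrier of Wnt proteins. Laptm4b had 0.502, 74.6, 0.207 and 0.0326 FPKM in transplanted mice and 0.248, 27.4 and 0.532 FPKM in Vav knockouts, against 8.41, 7 and 7.38 FPKM in 8-week controls. Wls had 0.311, 37.9, 1.16 and 0.0187 FPKM in transplanted mice and 0.316, 18.3 and 0.949 FPKM in Vav knockouts, against 27.2, 24.5 and 26.7 FPKM in controls. Replicate 2 of each group was the highest library of its group for both genes, as for Tcf4. The 6 plasmacytoid dendritic cell markers, all in the tables, summed to 72.8 to 91.4 FPKM in transplanted mice and 55.7 to 92.6 FPKM in Vav knockouts, against 104 to 106 FPKM in controls. Ccr9, which double-positive thymocytes also express, made up most of the control sum, and Bst2 and Irf8 were highest in libraries with Cre. Siglech was 0.195 FPKM or less in all of them. The part of these markers in the Tcf4 values was not tested.

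FPKM cannot rank the 6 genes against each other. The gene lengths behind them equalled the sum of all annotated transcripts for Tcf3, Tcf12, Id1 and Id3, which counts shared exons many times over. For Tcf3 the divisor was 31507 bases, over 14 transcripts whose exons cover 4039 bases, a ratio of 7.80. For Tcf12 it was 51870 bases for 15529 covered, a ratio of 3.34, and each level below uses the covered bases. The divisors of Tcf4 (38775 bases) and Id2 (1270 bases) were not the sums in the annotation used here (108550 and 4197). Their levels are therefore uncertain. The order of levels uses the 2438 covered bases of Id2, while sums with Id2 use its divisor, which is 0.521 of them, and are given both ways.

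Before division by length, the Vav controls at 4 weeks had a mean of 827 RPM for Tcf12 and 216 RPM for Tcf3. In RPM per kilobase of covered exon, Tcf3 and Tcf12 were alike in controls, a likeness that rests on the covered bases used. Tcf3 had 53.5 ± 4.33 and Tcf12 53.3 ± 5.79 in the Vav controls at 4 weeks (SD, n = 3 each). On the same scale Id3 followed at 27.2 ± 0.858, then Id2 at 2.16 ± 0.308, Tcf4 at 1.65 ± 0.187 and Id1 at 1.22 ± 0.183. Tcf3 and Tcf12 did not differ beyond their SDs, and Id2, Tcf4 and Id1 lay close together. In the Vav knockouts at 4 weeks the order was Tcf12 (57.1 ± 7.28), Id3 (17.2 ± 2.73), Tcf3 (10.1 ± 0.993), Id2 (3.36 ± 0.395), Id1 (3.25 ± 0.385) and Tcf4 (0.988 ± 0.0690). Id2 and Id1 did not differ beyond their SDs there.

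Tcf3 was 13.8% to 24.2% of the summed E protein level in the 13 libraries with Cre, against 48.4% to 56.2% in the 9 controls. The sum itself was 58.7 to 82.9 in libraries with Cre, against 101.7 to 126.5 in controls, with no overlap. Tcf12 made up 75.5% to 84.8% of it in libraries with Cre, against 42.4% to 50.2% in controls. Tcf3 is the deleted gene and Tcf12 was not called, so the lower sum and the shifted shares were set by the design. Nothing about the family is read from them. The scale counts transcripts, not protein, and these shares and sums depend on the covered bases used for each gene.

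**Figure D3:**
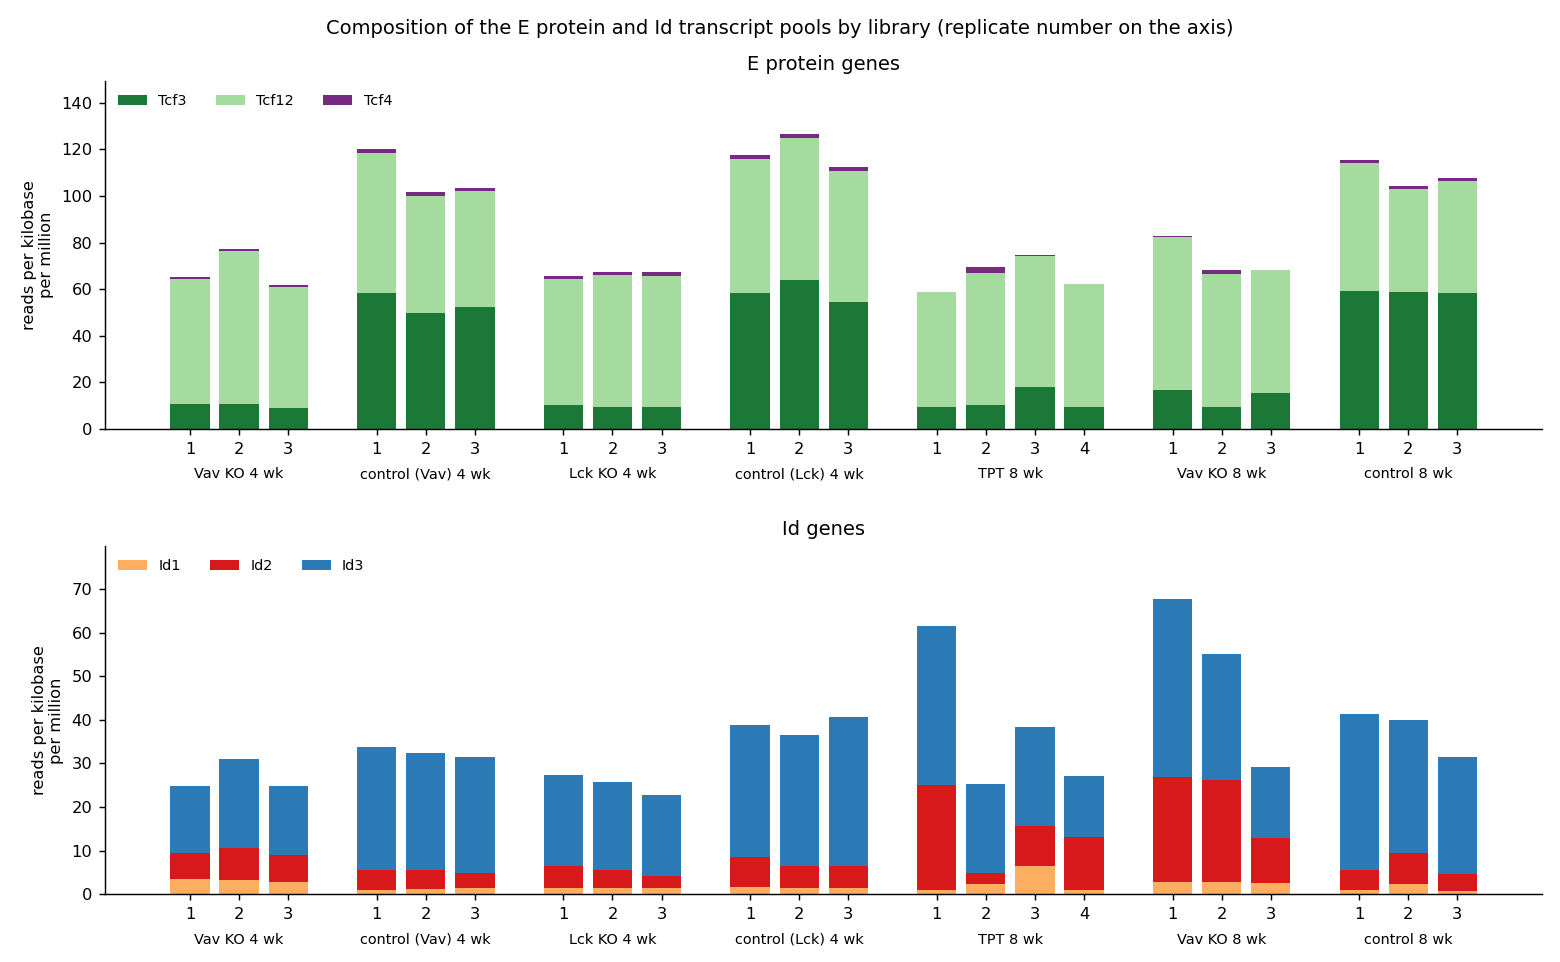
Stacked levels of the E protein genes (top) and Id genes (bottom) in each library, in RPM per kilobase of covered exon (for Id2, of its 1270-base divisor), from 0. E protein sums, which include the deleted Tcf3, lie between 58.7 and 82.9 with Cre and between 101.7 and 126.5 in controls. The Id pool is mostly Id3 in controls, with more Id2 in the Vav knockouts.

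Id3, an inhibitor induced by receptor signals in thymocytes (ENSMUSG00000007872, chromosome 4, 136143497 to 136145755), fell in both knockouts at 4 weeks by nearly the same amount. It had 12, 15.9 and 12.4 FPKM in Vav knockouts, against 22, 21.0 and 20.7 FPKM in controls. It had 16.3, 15.7 and 14.5 FPKM in Lck knockouts, against 23.5, 23.4 and 26.7 FPKM in controls. Neither knockout overlapped its controls. The changes were -0.63 (SE 0.104, adjusted p = 0.0121) for Vav and -0.63 (SE 0.0704, adjusted p = 0.0198) for Lck in limma, and their difference was -0.0036 (95% interval -0.30 to 0.29, adjusted p = 0.993).

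The Vav call of Id3 was lost without control replicate 1, 2 or 3 (adjusted p = 0.0584, 0.0559 and 0.0502 in limma). The Lck call was lost without a filter (adjusted p = 0.0532), and without knockout replicate 2 (0.0796) or 3 (0.0647) or control replicate 1 (0.0995), 2 (0.0735) or 3 (0.0732). The direction was the same in each of these fits.

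At 8 weeks Id3 had 28.4, 16.0, 17.7 and 10.8 FPKM in transplanted mice and 31.7, 22.6 and 12.7 FPKM in Vav knockouts, against 27.9, 23.9 and 21.0 FPKM in controls. Replicate 1 of each group with Cre lay above every control, so the groups overlapped. The changes were -0.46 (95% interval -1.23 to 0.31, adjusted p = 0.424) and -0.19 (-1.01 to 0.63, adjusted p = 0.752) in limma. A fall of the 4-week size lies inside both intervals, and the 8-week effect minus the 4-week effect was 0.44 (-0.35 to 1.23, adjusted p = 0.424).

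Id2 (ENSMUSG00000020644, chromosome 12, 25093799 to 25097140), known for its need in natural killer and innate lymphoid cells, rose in the Vav knockouts at 4 weeks. It had 5.88, 7.31 and 6.14 FPKM there, all above the 4.57, 4.39 and 3.47 FPKM of controls, a change of 0.54 (SE 0.112, adjusted p = 0.0267 in limma). In Lck knockouts it had 5.14, 4.16 and 2.90 FPKM, against 6.95, 5.11 and 5 FPKM in controls, a change of -0.41 (95% interval -0.87 to 0.05, adjusted p = 0.418). The Vav effect minus the Lck effect was 0.95 (95% interval 0.42 to 1.47), which just missed the threshold (adjusted p = 0.059). It passed with median-of-ratios scaling (0.0497), array weights (0.0347) and without Lck knockout replicate 1 (0.0319), and with voom on genes of 10 reads in 3 libraries (0.0445). The 4-week Vav call itself was lost without a filter (adjusted p = 0.0678), without knockout replicate 3 (0.0696) and without control replicate 1, 2 or 3 (adjusted p = 0.0591, 0.0777 and 0.0789).

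At 8 weeks Id2 had 24.2, 2.37, 9.20 and 12.3 FPKM in transplanted mice and 24.1, 23.3 and 10.4 FPKM in Vav knockouts, against 4.57, 7.12 and 3.85 FPKM in controls. All 3 Vav knockouts and 3 of the 4 transplanted libraries lay above every control, and transplanted replicate 2 lay below them. In RPM the mean was 232% of control in transplanted mice and 372% in Vav knockouts. With the spread shared over the 10 libraries, the changes were 0.78 (SE 0.594, adjusted p = 0.435) and 1.66 (SE 0.635, 95% interval 0.23 to 3.09, adjusted p = 0.123) in limma. Neither passed. The Vav change of Id2 passed without transplanted replicate 2 in the fit (adjusted p = 0.0375), with the transplanted mice left out of it (0.0101) and with array weights (0.00299).

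Id1 (ENSMUSG00000042745, chromosome 2, 152736251 to 152737410), a target of bone morphogenetic protein signals in many tissues, rested on few reads, from 9 to 152 per library. At 4 weeks it had 1.98, 1.86 and 1.57 FPKM in Vav knockouts, above the 0.602, 0.632 and 0.790 FPKM of controls, and rose by 0.74 (SE 0.0953, adjusted p = 0.00582 in limma). It passed the filter only through the 3 knockouts, and leaving out any 1 of them removed it from the test, while without a filter the adjusted p was 0.0205. In RPM it was at 267% of control. In Lck knockouts it had 0.788, 0.784 and 0.755 FPKM, against 0.954, 0.790 and 0.782 FPKM in controls, below the filter of 1 FPKM in 3 libraries. Fitted without a filter, its Lck change was -0.05 (adjusted p = 0.837), and the Vav effect exceeded the Lck effect by 0.79 (SE 0.112, adjusted p = 0.0102).

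At 8 weeks Id1 had 0.490, 1.36, 3.56 and 0.532 FPKM in transplanted mice and 1.59, 1.53 and 1.42 FPKM in Vav knockouts, against 0.598, 1.28 and 0.408 FPKM in controls. The Vav knockouts all lay above the controls, by a change of 0.54 (SE 0.394, adjusted p = 0.38 in limma) that did not pass with the spread shared over the table. The transplanted mice overlapped the controls (0.37, SE 0.369, adjusted p = 0.562). Transplanted replicate 3 was the highest at 3.56 FPKM, and without it the change was 0.02 (SE 0.238, adjusted p = 0.948).

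**Figure D4:**
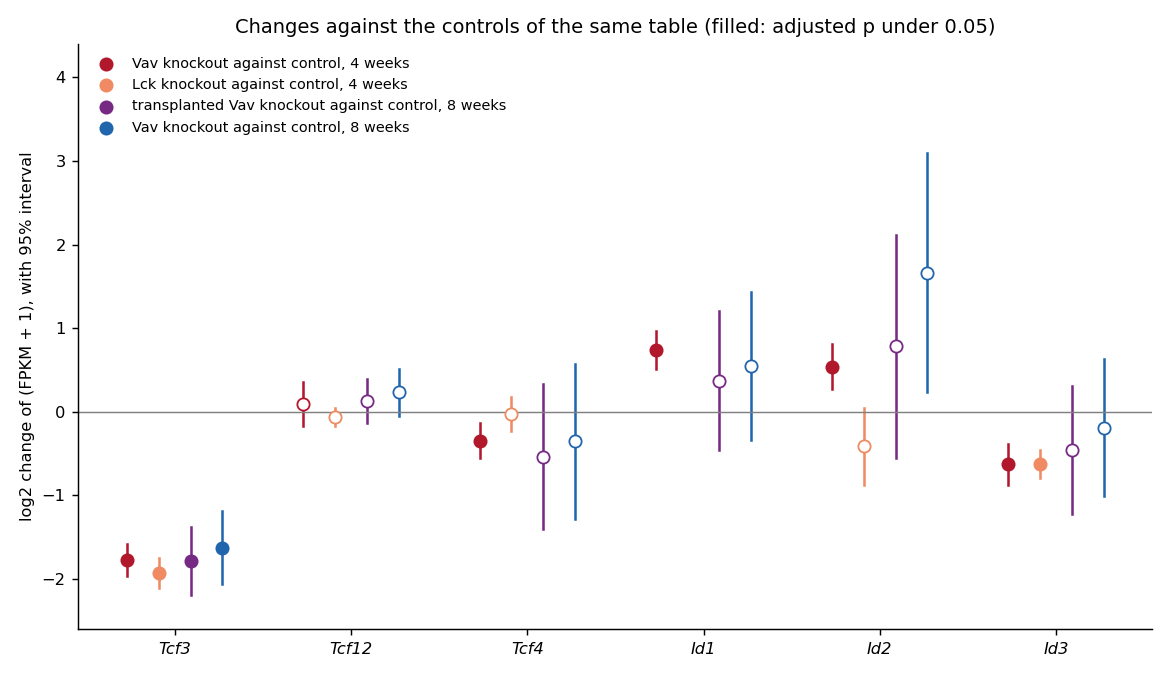
Log2 change of FPKM + 1 of each gene against the controls of its table, with 95% intervals from limma, filled where the adjusted p was under 0.05. Tcf3 lies between -1.93 and -1.63 in the 4 comparisons, Id3 is at -0.63 in both 4-week knockouts, and Id2 has the widest intervals at 8 weeks; Id1 was below the filter in the Lck table.

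Of the 6 genes, 5 were called in Vav knockouts at 4 weeks (Tcf4 the nearest to the threshold), where 13.7% of all tested genes were called. Id1 and Tcf4 passed the filter only through the group where they were higher, so nothing is read from that count. The libraries were apart for those 5, as for 37.8% of all genes. In Lck knockouts 2 of the 5 tested were called (Tcf3 and Id3), against 1% of all genes, and those 2 were apart, against 20%. In transplanted mice at 8 weeks 1 of 6 was called and apart (Tcf3), where 9.19% were called (4.59% higher, 4.6% lower) and 24.4% apart. In Vav knockouts at 8 weeks 1 of 6 was called (Tcf3), against 9.1% of all genes (4.65% higher, 4.45% lower). There 3 of 6 (Tcf3, Id1 and Id2) were apart, against 57.6%. Tcf3 is the deleted gene, so its call against control was set by the design, and nothing about the family is read from these counts. Between transplanted and untransplanted Vav knockouts, 0 of 6 were called and 0 were apart, against 0% and 5.99% of all genes. There 681 genes had an unadjusted p under 0.05 in limma. The count of called genes was 0 with voom as well, 3 without a filter, 2 higher and 3 lower without transplanted replicate 2, and 1 without replicate 4. For the Vav effect minus the Lck effect 0 of 5 were called, against 3.3%, and for the 8-week minus the 4-week Vav effect 0 of 5, against 18.2% (8.87% higher, 9.37% lower). None of the 6 genes had an unadjusted p under 0.05 between transplanted and untransplanted mice. At an unadjusted p under 0.05, Tcf4 and Id2 differed between the Vav and Lck effects, and Id2 between the ages (1.13, SE 0.400, adjusted p = 0.0763).

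The make-up of the Id transcripts differed in Vav knockouts, read from the shares in each library, without a test and without the calls above. With Id2 over its divisor, Id3 was 61.9% to 65.6% of the Id sum in Vav knockouts at 4 weeks, against 82.9% to 84.4% in controls. It was 76.0% to 81.3% in Lck knockouts, against 77.6% to 84.2% in controls. At 8 weeks it was 51.2% to 80.9% in transplanted mice and 52.6% to 60.1% in Vav knockouts, against 76.4% to 86.3% in controls. The Vav knockouts of both ages lay below all their controls, the Lck knockouts overlapped theirs, and transplanted replicate 2 was within the control range at 8 weeks. With Id2 over its covered bases, the Id3 share was 69.8% to 74.0% in Vav knockouts at 4 weeks, against 88.7% to 89.1% in controls, and 66.0% to 72.5% in Vav knockouts at 8 weeks, against 83.5% to 91.2% in controls.

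The ratio of summed Id to summed E protein transcripts, with Id2 over its divisor, was 0.381, 0.401 and 0.401 in Vav knockouts at 4 weeks, against 0.281, 0.319 and 0.303 in controls. It was 0.416, 0.381 and 0.340 in Lck knockouts, overlapping the 0.329, 0.288 and 0.362 of controls. At 8 weeks it was 1.05, 0.364, 0.513 and 0.437 in transplanted mice and 0.816, 0.806 and 0.426 in Vav knockouts, against 0.358, 0.383 and 0.291 in controls. Only transplanted replicate 2 fell within the control range at that age. With Id2 over its covered bases the ratio was 0.337 to 0.356 in Vav knockouts at 4 weeks, against 0.263 to 0.298 in controls. At 8 weeks it was then 0.342 to 0.850 in transplanted mice and 0.354 to 0.677 in Vav knockouts, against 0.274 to 0.350 in controls. The Id sum, with Id2 over its divisor, was lower than in every control in Lck knockouts (22.8 to 27.4 against 36.5 to 40.7) and in Vav knockouts at 4 weeks (24.8 to 31.0 against 31.4 to 33.8). The higher 4-week ratio in Vav knockouts thus came with a lower Id sum and a still lower E protein sum, on the lengths used here. The E protein sum includes the deleted Tcf3, so its fall in every ratio above was set by the design.

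Markers of other cells also differed in the same libraries. Summed FPKM of 7 innate-like T, NK and innate lymphoid markers was 50.7 to 194 in Vav knockouts at 4 weeks, against 25.3 to 27.5 in controls, and 27.3 to 40.8 in Lck knockouts, against 23.8 to 33.6 in controls. The 8-week sums were 87.0 to 791 in transplanted mice and 330 to 486 in Vav knockouts, against 29.2 to 41.2 in controls. Gzma made up most of the higher sums, and Ncr1, which defines NK cells, was at most 0.0728 FPKM in any of the 22 libraries, controls included. Gamma-delta markers, with 5 of 6 in the tables, summed to 27.9 to 83.4 in Vav knockouts at 4 weeks, against 3.71 to 3.90 in controls. Their sums at 8 weeks were 36.2 to 889 in transplanted mice and 14.3 to 180 in Vav knockouts, against 4.36 to 4.97 in controls. Single-positive markers were 40.6 to 43.9 in Vav knockouts at 4 weeks, against 21.0 to 21.7 in controls, and 30.4 to 32.3 in Lck knockouts, against 25.7 to 29.9 in controls. At 8 weeks they were 41.1 to 166 in transplanted mice and 49.4 to 75.5 in Vav knockouts, against 26.7 to 31.0 in controls. Double-negative markers were 13.8 to 31.6 in Vav knockouts at 4 weeks, against 2.96 to 3.72 in controls. In Lck knockouts they were 4.86 to 6.92, against 3.31 to 4.47 in controls. At 8 weeks they were 7.55 to 144 in transplanted mice and 8.77 to 38.4 in Vav knockouts, against 2.92 to 2.98 in controls. Il2ra made up most of the 4-week Vav sums (mean 23.1 FPKM, against 1.96 FPKM in controls). Kit was lower there (mean 0.0327 FPKM, against 0.184 FPKM in controls). The 7 B cell markers summed to 69.4 to 138 in Vav knockouts at 4 weeks, against 168 to 183 in controls. Their 8-week sums were 96.6 to 123 in transplanted mice and 95.2 to 128 in Vav knockouts, against 184 to 221 in controls. Ighm made up most of these sums. Pax5, which defines B cells, was 0 in every library with Cre and at most 0.00985 FPKM in controls. Erythroid sums at 8 weeks were 29.1 to 72.6 in transplanted mice and 3.52 to 16.7 in Vav knockouts, against 14.2 to 31.8 in controls. The 7 dendritic cell and macrophage markers summed to 2.87 to 5.41 in Vav knockouts at 4 weeks, against 0.993 to 1.10 in controls. At 8 weeks they summed to 4.74 to 22.8 in transplanted mice and 7.34 to 16.3 in Vav knockouts, against 1.42 to 2.78 in controls. H2-Ab1, Itgam and Lyz2 made up most of the higher sums. Adgre1 was at most 0.0252 FPKM, Csf1r at most 0.252 FPKM and Flt3 at most 0.136 FPKM in any library. The 6 stroma and endothelium markers summed to 13.7 to 25.8 in Vav knockouts at 4 weeks, against 9.09 to 10.6 in controls, and 10.3 to 12.2 in Lck knockouts, against 9.48 to 9.88 in controls. Their 8-week sums were 12.9 to 24.9 in transplanted mice and 15.6 to 31.4 in Vav knockouts, against 8.49 to 9.18 in controls. Pecam1 and Col1a2 made up most of the higher sums. Epcam went the other way in Vav knockouts at 4 weeks (mean 0.298 FPKM, against 1.26 FPKM in controls). Foxn1 was at most 0.0709 FPKM and Cdh5 at most 0.493 FPKM in any library. The part of these markers in the Id1, Id2, Id3 and Tcf4 values, and in those of the target genes, was not tested.

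Among the genes most like each of the others over the 22 libraries were Pip5k1b (r = 0.913), Epha2 (r = 0.913) and Cdkl1 (r = 0.903) for Tcf3. For Tcf12 they were Exoc7 (r = 0.790), Ak3 (r = 0.777) and Dennd4a (r = 0.761). For Id2 they were Bms1 (r = 0.860), Glo1 (r = 0.848) and Bcl9l (r = 0.841), and for Id3 Ptcra (r = 0.775), Spop (r = 0.716) and Zdhhc8 (r = 0.698). Libraries of a table share their control mean, so these are descriptions. Among the 6 genes themselves, the closest pair was Tcf3 with Id3 (r = 0.607) and the most opposed Tcf4 with Id2 (r = -0.60), leaving out Id1, which did not pass the filter in all 3 tables.

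Genes known as E protein targets in thymocytes moved in both directions. Of 18 listed, 16 were tested in Vav knockouts at 4 weeks, where 3 rose, 4 fell and 9 did not pass. Their median change was -0.09, against -0.01 over all genes, of which 7.63% rose and 6.08% fell. Ptcra, which encodes the invariant chain of the pre-T cell receptor and is a textbook E protein target, had 10.1, 9.86 and 7.17 FPKM in Vav knockouts, against 20.4, 22.6 and 23.3 FPKM in controls (-1.21, SE 0.127, adjusted p = 0.00354 in limma). The recombinase genes fell as well, Rag1 to 853 ± 60.4 FPKM in Vav knockouts, against 1229.7 ± 44.5 FPKM in controls, and Rag2 to 40.4 ± 4.84 FPKM, against 61.8 ± 2.91 FPKM in controls (SD, n = 3 each). The coreceptor gene Cd4 was at 266 ± 24.8 FPKM in Vav knockouts, against 368 ± 8.38 FPKM in controls, the smallest of the 4 falls (-0.47, adjusted p = 0.0179).

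Notch1, the receptor that starts the T cell programme, had 36.1, 59.4 and 40.6 FPKM in Vav knockouts at 4 weeks, against 16.2, 15.2 and 16.2 FPKM in controls, a rise of 1.43. Socs3, a cytokine signalling inhibitor, had 14.8, 15.1 and 10.3 FPKM in Vav knockouts, against 3.93, 3.71 and 3.21 FPKM in controls, a rise of 1.62. Il7r, the interleukin-7 receptor, had 3, 3.72 and 2.94 FPKM in Vav knockouts, against 0.539, 0.553 and 0.474 FPKM in controls, a rise of 1.47. It passed the filter only through the knockouts. Their limma adjusted p-values were 0.00507, 0.00251 and 0.0011. Without control replicate 1, 2 or 3 the list had 2, 1 and 2 falls in place of 4, and with the filter removed 2. The 420 tested genes on chromosome 15, where Il7r lies, had a median change of 0.25, with 35.2% called higher, against a median of -0.01 elsewhere. The medians of the chromosomes of the 6 E protein and Id genes lay between -0.02 and 0.04 in this comparison.

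In Lck knockouts 15 of the 18 targets were tested and Ptcra was the 1 that passed, at 8.95, 8.81 and 7.03 FPKM, against 16.0, 14.6 and 14.0 FPKM in controls (-0.78, SE 0.0976, adjusted p = 0.027 in limma). Over all genes 0.201% rose and 0.804% fell. The call was lost (0 falls) without a filter, without knockout replicate 2 and without each control replicate. It stood beside 1 rise without knockout replicate 1, while a pseudocount of 0.1 gave 2 falls and voom 1 rise and 3 falls. Il7r had 1.14, 0.852 and 0.882 FPKM in Lck knockouts, against 1.85, 1.79 and 1.59 FPKM in controls (-0.49, adjusted p = 0.0915). The Vav effect exceeded the Lck effect for Socs3 by 2.02 (adjusted p = 0.000922), for Il7r by 1.96 (adjusted p = 5.16e-05) and for Notch1 by 1.32 (adjusted p = 0.00697). These 3 were the targets of 15 tested that passed this test in limma, where 1.65% of all genes were called higher and 1.65% lower. The Ptcra effects differed by -0.43 (SE 0.172, adjusted p = 0.226).

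At 8 weeks 17 targets were tested. Notch1 and Socs3 rose, Rag1 and Rag2 fell and 13 did not pass in each of the 2 Vav groups, which share their controls. Over all genes 4.59% rose and 4.6% fell in transplanted mice, and 4.65% rose and 4.45% fell in Vav knockouts. The median change of the targets was -0.12 in both, against -0.01 and -0.0049 over all genes. Rag2 had 2.80, 1.84, 10.01 and 13.2 FPKM in transplanted mice and 5.31, 4.53 and 5.93 FPKM in Vav knockouts, against 59.4, 63.0 and 61.5 FPKM in controls. Its changes were -3.28 (SE 0.502, adjusted p = 0.0049) and -3.32 (SE 0.537, adjusted p = 0.00734) in limma, the largest among the targets called. The Vav fall of Rag2 was larger at 8 than at 4 weeks by -2.71 (SE 0.136, adjusted p = 5.72e-06), in an interaction fit without the transplanted mice. There 16 targets were tested, where 8.87% of all genes had a higher and 9.37% a lower effect. Rag1 and Cd4 also had more negative effects at 8 weeks, while those of Cdkn1a (1.54, adjusted p = 0.017) and Cdk6 (1.02, adjusted p = 0.0463) were higher in limma. The 2 higher calls became 1 when any 1 control, or 4-week knockout replicate 1 or 3, was left out. Notch1 had 101, 44.5, 64.4 and 43.6 FPKM in transplanted mice and 65.8, 87.8 and 32.0 FPKM in Vav knockouts, against 9.97, 10.6 and 11.6 FPKM in controls. Ptcra had 24, 5.25, 5.51 and 2.70 FPKM in transplanted mice and 5.90, 12.3 and 0.911 FPKM in Vav knockouts, against 12.1, 12.7 and 14.2 FPKM in controls, and did not pass (adjusted p = 0.498 and 0.281).

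Those 8-week counts depended on the libraries in the fit. For transplanted mice they were 5 higher and 6 lower without transplanted replicate 3, and 2 or 3 higher and 1 or 2 lower without any other library. For Vav knockouts they were 1 and 1 without any 1 knockout library, 0 and 1 without control replicate 1 or 3, and 0 and 0 without control replicate 2. Without transplanted replicate 1, 2, 3 or 4 they were 3 and 3, 6 and 3, 3 and 5, and 2 and 1. With only the 2 groups compared, or with array weights, 7 rose and 6 fell. Removing the filter gave 2 and 1 for transplanted mice and 1 and 1 for Vav knockouts, and array weights gave 5 and 6 for transplanted mice. Shares of all genes called are not given for these fits, so nothing is read from their counts.

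**Figure D5:**
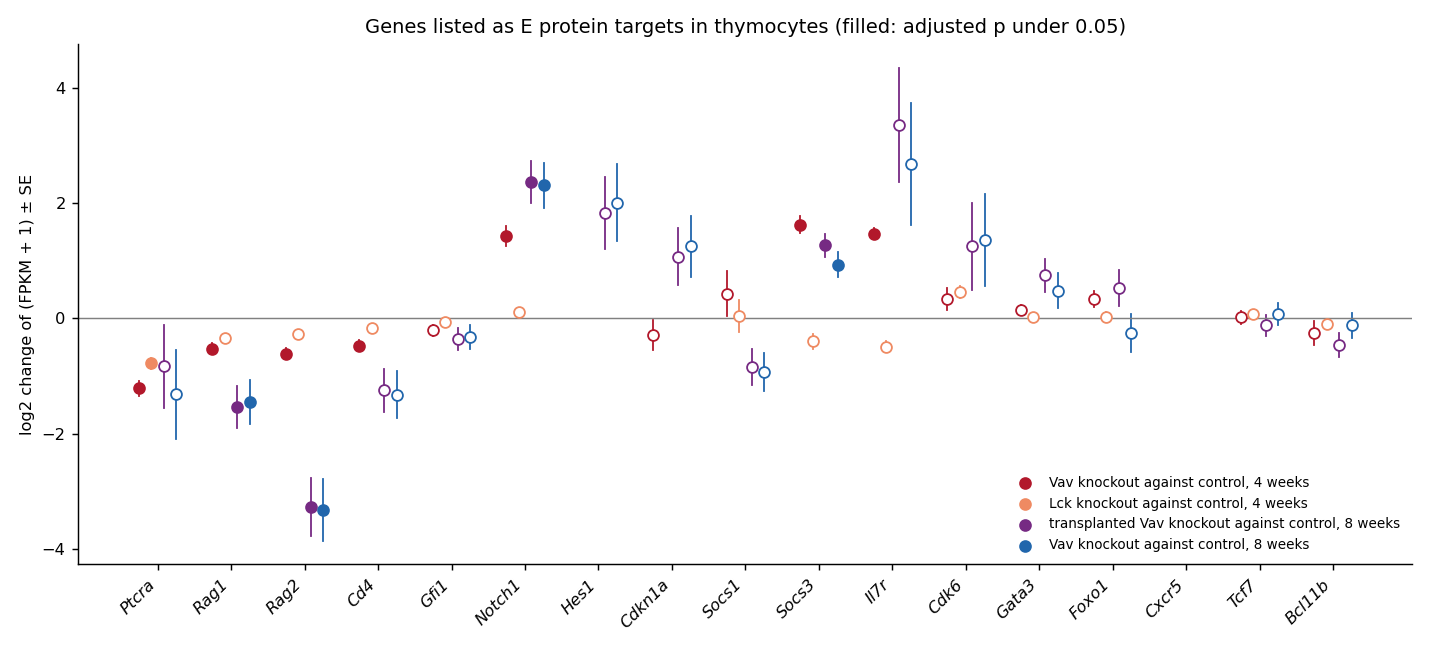
Log2 change of FPKM + 1 with SE for 17 of the 18 genes listed as E protein targets, in 4 comparisons against control, filled where the limma adjusted p was under 0.05; genes below the filter have no point. Rag2 at 8 weeks has the lowest called values (-3.28 and -3.32), and Notch1 and Socs3 are filled above 0 in the 3 Vav comparisons and open in the Lck comparison.

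Of 7 co-regulator genes 6 were tested, and Kat2a (0.40, adjusted p = 0.0367) and Kat2b (0.38, adjusted p = 0.0239), both histone acetyltransferases, rose in Vav knockouts at 4 weeks in limma, with 0 falls, where 7.63% of all genes rose and 6.08% fell. Kat2a averaged 5.11 ± 0.699 FPKM in Vav knockouts and 3.61 ± 0.232 FPKM in controls (SD, n = 3 each). In the other comparisons against control 0 of those 6 passed. Of 4 turnover genes, 3 were tested (Usp1, Stub1 and Skp2) and 0 passed in any comparison. The 8-week Vav effect exceeded the 4-week effect for Kat2a by 0.50 (adjusted p = 0.0173) and lay below it for Kat2b (-0.41, adjusted p = 0.0301) and Crebbp (-0.46, adjusted p = 0.0485), where 8.87% of all genes had a higher and 9.37% a lower effect. The 4-week Vav calls of this list were 0 without a filter or without control replicate 1, 2 or 3, and 1 without knockout replicate 3. Without transplanted replicate 3, Kat2a was called higher in both 8-week groups with Cre.

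Among 10 genes of signals upstream of Id genes, 7 were tested in Vav knockouts at 8 weeks, and the early growth response genes Egr3 (-1.5, adjusted p = 0.025) and Egr2 (-0.96, adjusted p = 0.0419) fell in limma, where 4.65% of all genes rose and 4.45% fell. Egr2 passed the filter at that age only through the 3 controls, and Egr3 through them and transplanted replicate 3. Egr3 had 0.184 and 0.197 FPKM and a listed 0 in Vav knockouts, against 1.73, 2.54 and 2.31 FPKM in controls. Egr1 was -1.10 there (adjusted p = 0.15). In transplanted mice the values were -0.96 for Egr3 and -0.71 for Egr2 (adjusted p = 0.0846 and 0.0843). No gene of this list passed at 4 weeks, in 7 tested for Vav and 6 for Lck. The Vav effect was lower at 8 weeks than at 4 weeks for Egr3 (-1.04, adjusted p = 0.0194) and Egr2 (-0.80, adjusted p = 0.0291), as for 9.37% of all genes, in a fit where both passed at 8 weeks only through the controls. The 8-week Vav calls of this list were 0 without any 1 knockout or control library and with voom, and 1 without transplanted replicate 4, and in transplanted mice 3 fell without their replicate 3.

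Partners of E proteins were scarce. Of 9 listed genes, 7 stayed under 1 FPKM in every library, Tal1, Lmo1 and Lmo2 among them, with Lmo1 at 0 in all 22. Ldb1, the bridging cofactor, was the only one tested and did not pass against control, although its Vav effect was lower at 8 than at 4 weeks (-0.39, adjusted p = 0.0381). Without transplanted replicate 3 it was called lower against control in both 8-week groups with Cre. Of 4 other inhibitors of the helix-loop-helix class, Heyl and Hes1, both Notch targets, were tested at 8 weeks. Heyl had 9.38, 1.97, 3.84 and 0.816 FPKM in transplanted mice and 4.61, 7.76 and 2.61 FPKM in Vav knockouts, against 0.0515, 0.0333 and 0.0857 FPKM in controls. Its change was 1.94 (adjusted p = 0.0506) in transplanted mice and 2.41 (adjusted p = 0.0313) in Vav knockouts in limma. Hes1 was 1.84 (adjusted p = 0.101) and 2.01 (adjusted p = 0.0869). Both passed the filter only through libraries with Cre. The Heyl call was lost (0 rises) without a filter and without any 1 knockout or control library, while 2 of this list rose in Vav knockouts without transplanted replicate 1 or 3. In transplanted mice 2 rose without their replicate 3 and 1 without replicate 4. Id4 was at most 0.0314 FPKM in any library.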

How the data were processed

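Thymocyte RNA was purified on RNeasy mini columns and made into libraries with Nugen Ovation Ultralow reagents (labels' protocols). The authors deposited FPKM per gene in 3 tables of 43430 genes. The submitters' processing notes name Trimmomatic 0.33, STAR, HTSeq 0.6.1, DESeq2 and mm10. The strand setting is not stated, so overlapping genes are uncertain. No column of sample values was unused (0 columns).

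Symbols came from the GENCODE annotation of that build for 42546 genes. Whole reads came out, within 0.01, for 99.96% of the 25265 genes with any value. The recovered length equalled the summed transcripts for 52.0% of 15686 genes with several transcripts, and the covered exons for 0.45%. The main test was limma 3.58.1 (trend, R 4.3.3) on log2(FPKM + 1), over genes with 1 FPKM in 3 libraries of each table in the fit. Benjamini-Hochberg adjustment ran over all genes tested, and an adjusted p under 0.05 was called. The 8-week groups shared 1 fit, and effects were compared as interactions over 12 libraries. Tables were treated as normalized separately, so levels in different tables are descriptions. The model and the read recovery were tested on simulated data.

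The 6 genes and all lists were chosen with earlier results of these data known. Besides the 6, the text names up to 4 called genes per list and comparison by smallest adjusted p, and the 3 genes most like each member. One listed target is counted but not reported by name. Other genes named were chosen after their values were seen. Alternatives were a pseudocount of 0.1, other filters and scalings, robust variances, array weights, the replicate block and leaving out each library. FPKM on covered exons and limma voom on recovered reads, also with a filter of 10 reads, were added after the data were seen.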

Additional observations from a re-analysis of the deposited data

Results flagged for a closer look

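In the 4 transplanted libraries, Tcf3 was 2.32 FPKM in replicate 3, far from the 1.21 to 1.31 FPKM of the other libraries. Tcf4 was 1.78 FPKM in replicate 2, far from the other transplanted libraries at 0.00319 to 0.152 FPKM. Each was singled out because its gap to the nearest library was large relative to the range of the group, which chance does in about 1 group of 20.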

How the results depend on the processing

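The 930 alternative values were changes of single genes and counts of genes called. Of these, 864 were labelled the same, 35 weaker (a call lost or fewer genes called), 31 stronger and 0 reversed. A change of sign counted as reversed only where a fit called the gene. Genes not called could thus change sign and still be labelled the same, as could counts that changed little. Tcf3 was called against control in all 78 alternatives. For Vav at 4 weeks, 5 of the 6 genes were called, 3 without a filter, and 2 to 3 with 1 library left out. For Lck, 2 were called, 1 without a filter, 1 with the replicate block, and 1 to 2 with 1 library left out. For Vav at 8 weeks, 1 was called, 4 with array weights, 2 with only the 2 groups compared, and 1 to 2 with 1 library left out (2 without transplanted replicate 2). For the Vav minus Lck effect, 0 were called, 1 each without a filter, with median-of-ratios scaling, array weights, the replicate block or covered-exon FPKM, 2 with voom, 3 with voom and a filter of 10 reads, and 0 to 1 with 1 library left out. For the 8-week minus 4-week effect, 0 were called, 1 each with array weights or the replicate block, and 0 to 2 with 1 library left out (2 without 8-week Vav knockout replicate 3). Same-numbered libraries did not deviate together throughout. At 4 weeks r was -0.145, -0.168 and 0.0502 in the Vav groups and 0.217, -0.021 and 0.0266 in the Lck groups. Only replicate 1 of the Lck groups was closest to its own number there. With so few libraries per group, these values cannot decide whether the numbers mark a pairing. In the 8-week Vav and control groups each library correlated best with its own number (r = 0.0686, 0.0765 and 0.066), a hint from the data and not the design. Under the replicate block 4 genes were called for Vav at 4 weeks (Tcf4 at adjusted p = 0.13), Id3 was at 0.108 for Lck, and Id2 was at 0.0372 for the Vav minus Lck effect. Scaling to the same sum shifted the median of all genes to -0.12 for Vav knockouts at 8 weeks. Depth limited Id1 (9 to 152 reads) and Tcf4 at 8 weeks (2 to 1351 reads).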
